A study of Mus musculus with 768 samples.

Results

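Integrins and other receptors for the extracellular matrix were followed in single endothelial cells from lymph node and from mammary tumours of the mouse. With earlier results of these data known, the genes were picked by symbol, and no measured value entered the rule. They were every integrin α subunit gene (Itga followed by a number, v, l, m, x, d or e), every β subunit gene (Itgb followed by a number), the collagen receptors Ddr1 and Ddr2, the syndecans Sdc1 to Sdc4, dystroglycan (Dag1), Cd44 and Bcam, with antisense and pseudogene rows left out. This gave 35 genes of 51734, of which 18 encode α subunits, 8 encode β subunits and 9 encode other receptors. In each count table the 35 genes took 36 rows, because Itgam was listed on 2 of them, which were summed.

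An integrin is an α and a β chain bound together across the cell membrane. The α chain largely sets which matrix protein is bound, and the tail of the β chain is tied to actin through talin and kindlin. In endothelium, integrins with the β1 chain anchor cells to laminin and collagen of the basement membrane and to fibronectin, while those with the αv or β3 chain bind vitronectin, fibronectin and other proteins with an RGD motif and are well known from growing vessels. Lymphocytes enter lymph nodes across high endothelial venules (HEVs), and the antibody MECA-79 binds sulfated glycans on their surface. The integrins of lymphocytes bind ICAM1, VCAM1 and MADCAM1 on these vessels, so that endothelial cells carry the ligands of the leukocyte integrins and, on their other side, receptors for their own matrix.

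The first group, TU_HEV, is endothelium that bound MECA-79, sorted from PyMT mammary tumours (a model named for the polyoma middle T antigen) onto plates pool3 and pool4. It was set against LN_HEV, which bound MECA-79 and came from lymph node (pool1, pool2), and against TU_EC, the tumour endothelium that did not bind it (poolA to poolD). All 3 groups were sorted as CD45-negative and CD31-positive, and the sources used here state no genotype, strain, age or number of animals. The title of the series speaks of cancer immunotherapy, but no label says whether any of these cells came from treated mice. No animal is named, so each group was 1 sample, the plates are not independent replicates, and no p-value was computed. Usable cells came from 51% of wells in TU_HEV, or 98 cells, from 72.9% in LN_HEV, or 140 cells, and from 78.9% in TU_EC, which supplied the rest of 541 cells. Their median total was 1431389 counts per cell in TU_HEV, 1059962 in LN_HEV and 625611 in TU_EC. The lymph node and tumour HEV plates share a table and a run of library numbers and the TU_EC plates have their own, so a difference from TU_EC cannot be told apart from a difference between these sets.

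Markers of the labelled cell types were read in the retained cells. The cell filter used the same 5 pan-endothelial genes, and genes such as Epcam and Ptprc, so their levels are no independent check. The 5 pan-endothelial genes summed to 6765 CPM (counts of a gene scaled to a total of 1e+06) in TU_HEV, 5398 in LN_HEV and 5804 in TU_EC. Of 4 genes of MECA-79 synthesis and lymph node HEVs, the mucin gene Glycam1 was at 127.7 CPM in TU_HEV, 64990 in LN_HEV and 0.198 in TU_EC. Epcam, which marks tumour epithelium, had 0 counts in all retained cells. Libraries of pool1 also stood apart. The 11 left out of LN_HEV, numbered 22, 24, 25, 27, 28, 30, 32, 34, 35, 37 and 38, held the counts of 19 TU_HEV libraries, gene by gene for at least 97.4% of genes, and 16 of those 19 are among the retained TU_HEV cells. A further 3 libraries of pool1 that were kept (26, 29 and 33) held the counts of 3 TU_HEV wells that were not retained, or 182574 of 1589301 counts. Leaving these 3 out as well changed no call below.

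Upstream sequences are shown for 4 of the genes called in a comparison with TU_HEV. They are the 2 chains of the main fibronectin receptor, Itga5 and Itgb1, the platelet integrin gene Itga2b, and Ddr2. Itga2b was called higher in TU_HEV than in both other groups, though over LN_HEV not under every setting. Ddr2 was near 0 in TU_HEV and at 118.8 CPM in LN_HEV. Each line holds the 250 bases before the start of transcription in RefSeq (build GRCm38.p6), 5′ to 3′ on the strand of the gene. Capitals mark GGAA, the core bound by ETS factors, on either strand (TTCC on the other).
Itga5: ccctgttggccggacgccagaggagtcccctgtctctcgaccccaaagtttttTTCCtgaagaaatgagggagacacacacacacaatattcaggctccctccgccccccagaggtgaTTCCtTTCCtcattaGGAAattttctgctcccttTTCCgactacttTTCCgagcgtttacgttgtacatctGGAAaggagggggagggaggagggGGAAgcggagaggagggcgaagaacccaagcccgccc
Itgb1: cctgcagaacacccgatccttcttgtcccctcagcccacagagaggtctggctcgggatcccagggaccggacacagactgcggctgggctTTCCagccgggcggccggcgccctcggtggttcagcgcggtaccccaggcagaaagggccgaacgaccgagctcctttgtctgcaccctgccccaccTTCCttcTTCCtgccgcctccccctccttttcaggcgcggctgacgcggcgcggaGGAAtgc
Itga2b: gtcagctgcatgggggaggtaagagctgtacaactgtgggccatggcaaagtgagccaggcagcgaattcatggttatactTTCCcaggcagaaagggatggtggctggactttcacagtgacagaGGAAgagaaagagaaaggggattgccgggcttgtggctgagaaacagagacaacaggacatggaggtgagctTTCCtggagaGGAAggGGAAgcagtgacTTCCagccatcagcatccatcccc
Ddr2: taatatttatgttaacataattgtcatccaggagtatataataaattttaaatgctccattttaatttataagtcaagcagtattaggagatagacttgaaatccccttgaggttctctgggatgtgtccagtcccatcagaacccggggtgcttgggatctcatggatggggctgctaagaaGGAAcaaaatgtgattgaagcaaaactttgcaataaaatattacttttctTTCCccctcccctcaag
The Itga5 stretch is chr15:103366792-103367041 on the minus strand and overlaps no exon of the gene in GENCODE M21. The Itgb1 stretch, chr8:128685404-128685653 on the plus strand, ends at the base before the annotated gene. The Itga2b stretch is chr11:102469884-102470133 on the minus strand and overlaps an exon of a non-coding transcript of that gene. The Ddr2 stretch, chr1:170088945-170089194 on the minus strand, lies in an intron, because RefSeq places the start 21818 bases downstream of the GENCODE gene start. GGAA was found 8 times in the Itga5 stretch, 4 times for Itgb1, 6 times for Itga2b and 2 times for Ddr2, and at least 1 time in 93.4% of 32851 RefSeq stretches of the same length, with a median of 3. The SP1 core GGGCGG, read on both strands, occurred 2 times for Itga5 and 1 time for Itgb1 and is found in 32.7% of stretches. CACCC, bound by KLF factors, occurred 2 times for Itgb1 and 1 time for Ddr2 and is found in 52% of stretches. TGANTCA (AP-1), AGATAA, bound by GATA factors, and ACGTG (the hypoxia core) were absent from all 4 stretches and are present in 6.75%, 9.99% and 16.6% of stretches. These are matches of letters only. The table held a stretch for 26 of the 35 genes, and none for Itgb3, Itga6 or Itgb4, among others.

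Of the 35 genes, 19 reached 5 CPM in at least 1 group, 11 had counts but stayed under 5 CPM (Ddr1, Itga10, Itga11, Itga4, Itga7, Itgad, Itgae, Itgb2, Itgb7, Itgb8 and Sdc2), and 5 had 0 counts in all 541 cells (Itga8, Itgal, Itgam, Itgax and Itgb6). CPM values of a group or plate come from counts summed over its cells. A gene was called higher or lower where its CPM differed at least 2-fold, no plate of either group overlapped the range of the other, and the larger of the 2 levels was at least 5 CPM. Intervals are exact 95% Poisson intervals of a ratio. They cover counting error only, and reads without molecular identifiers are not independent molecules.

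**Figure D1:**
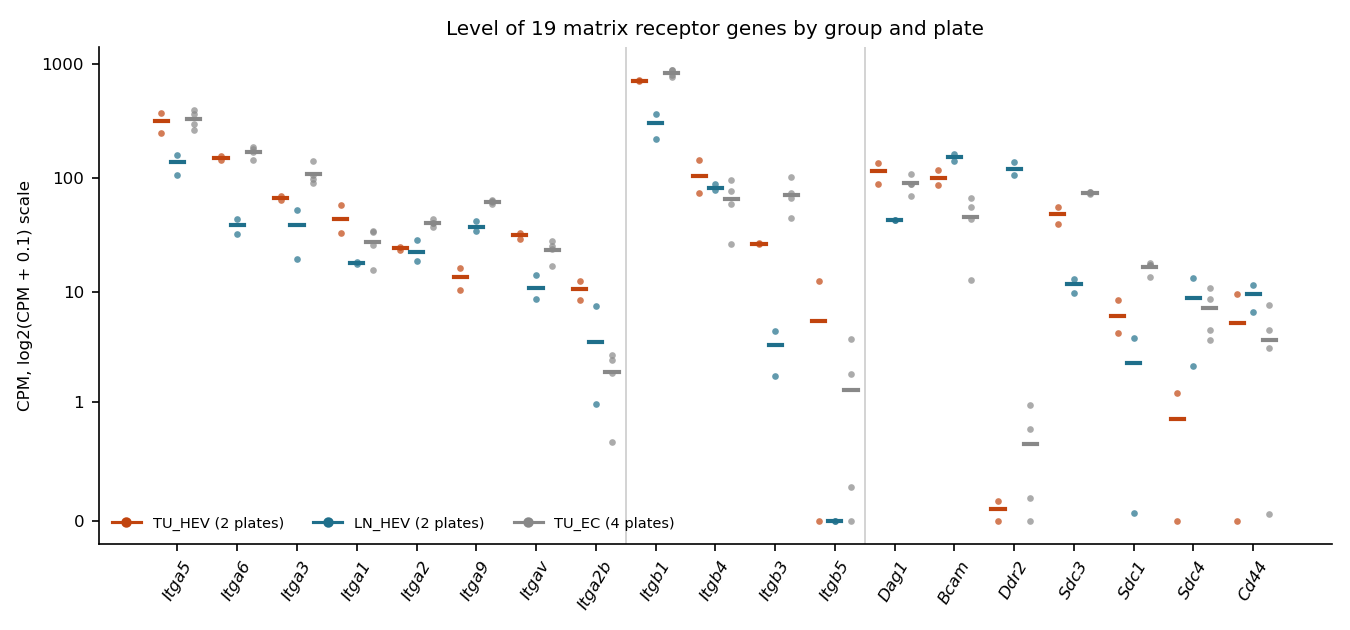
Level of the 19 genes that reached 5 CPM in a group, as CPM on a log2(CPM + 0.1) scale. Points are plates, lines are group values from summed counts, and grey rules separate α subunits, β subunits and other receptors. Itgb1 was the highest in each group, at 708 CPM in TU_HEV, 301.4 in LN_HEV and 834 in TU_EC, and Ddr2 was at 0.0274 CPM in TU_HEV against 118.8 CPM in LN_HEV.

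Against lymph node HEV cells, tumour HEV cells had more transcript of 7 of the 12 integrin subunits that reached 5 CPM, and of 3 of the 7 other receptors. Of 19 genes at 5 CPM or more, 10 were higher in TU_HEV (Itgb1, Itga5, Itga6, Itgav, Itgb3, Itga1, Itga2b, Dag1, Sdc3 and Sdc1), or 52.6%, against 20.2% of 10959 genes overall. Lower were 3 (Ddr2, Itga9 and Sdc4), or 15.8%, against 8.81% overall. The median log2 ratio of the 19 was 1.23, where that of all genes was 0.29. With median-of-ratios size factors, which move the all-gene median by -0.30, 5 were higher and 3 lower, and with totals that leave out the 20 highest genes 6 were higher and 4 lower. Itga5, Itgb1, Itga1 and Itga2b lost the call under both scalings and kept the direction, so that of the subunits Itga6, Itgav and Itgb3 were called under each. The shares of all genes given here belong to the main scaling and are not the background for counts under the others.

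Against the MECA-79-negative cells of the same tumour type, the picture was mixed and smaller. Of 18 genes, 2 were higher in TU_HEV (Itga2b and Bcam), or 11.1%, against 17.1% of 10805 genes overall. Lower were 4 (Itgb3, Itga9, Sdc1 and Sdc4), or 22.2%, against 5.79% overall. The median log2 ratio was -0.12, below the 0.40 of all genes. With size factors, which move the all-gene median by -0.45, 1 was higher and 7 were lower, since Bcam lost the call and Itga2, Itga3 and Sdc3 gained it. With totals without ribosomal RNA and mitochondrial genes 1 was higher and 5 lower. Here too the shares of all genes are those of the main scaling only. In LN_HEV against TU_EC, 2 of 17 genes were higher (Bcam and Ddr2), or 11.8%, where 14.3% of 10811 genes were, and 9 were lower (Itgb1, Itga5, Itga6, Itga3, Itgav, Itgb3, Dag1, Sdc1 and Sdc3), or 52.9%, where 14.3% were. The lower ones lay between 2.09-fold (Dag1) and 20.9-fold (Itgb3), and Bcam was 3.37-fold higher. The calls of Dag1 and Itgav, at 2.09-fold and 2.17-fold, were the least stable. That of Dag1 was lost in thinned cells, with the 11 pool1 libraries described above kept, without the endothelial rule and without poolC. That of Itgav was lost in thinned cells, with equal weight for each cell, with those 11 libraries, without pool2 and without cells that had Ptprc, Pf4, Epcam or Pdgfrb. The 3 comparisons share their groups, so their values are not independent of each other.

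**Figure D2:**
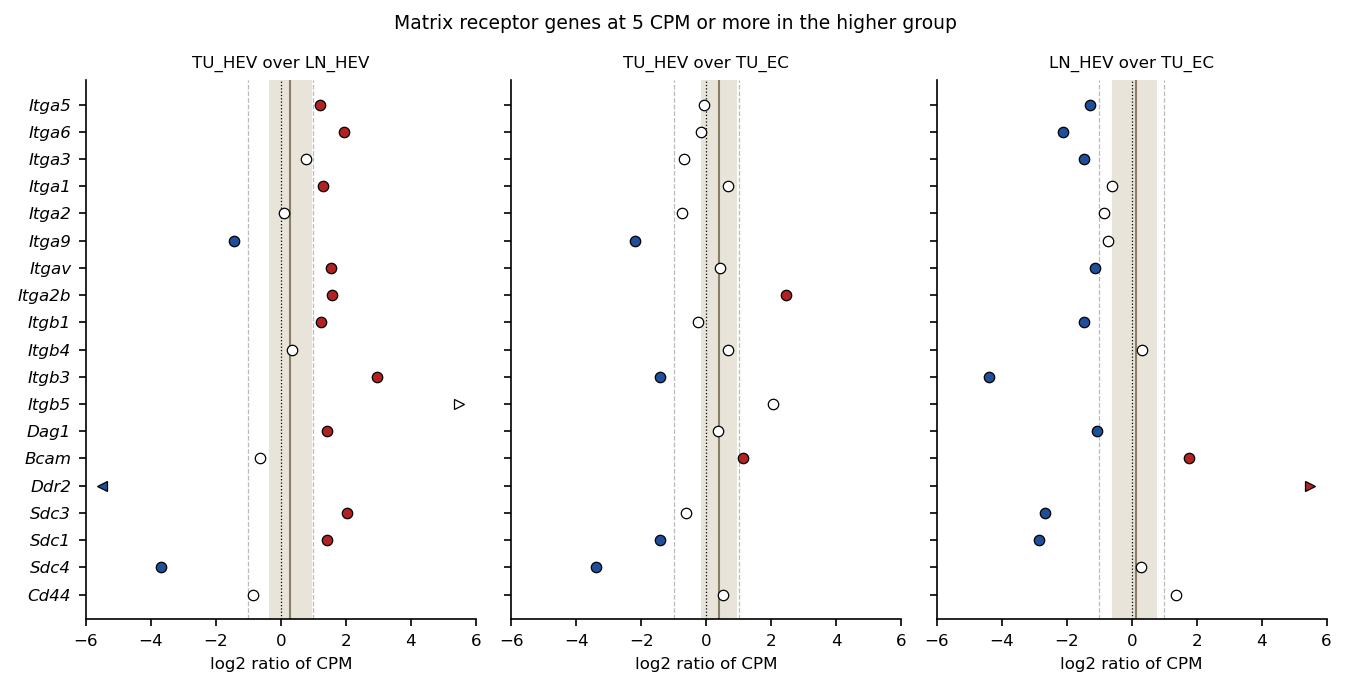
The log2 ratio of CPM for each gene whose larger level was at least 5 CPM, in 3 comparisons that share groups. Filled red and blue points are genes called higher and lower, open points were not called, triangles lie beyond the axis, dashed lines mark 2-fold, and the band and solid line show the quartiles and median of all genes (median 0.29 for TU_HEV over LN_HEV, 0.40 for TU_HEV over TU_EC and 0.13 for LN_HEV over TU_EC).

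Itga5 and Itgb1 encode α5β1, the main fibronectin receptor of endothelium. Itgb1 (chr8:128685654-128733200, plus strand) had 701 and 714 CPM in the TU_HEV plates, against 217.2 and 358.4 in the LN_HEV plates and 793, 885, 878 and 761 in the TU_EC plates. Both tumour groups were above both lymph node plates, and TU_HEV was just under all 4 TU_EC plates. The ratio was 2.35 over LN_HEV (interval 2.32 to 2.38) and 0.849 over TU_EC (0.843 to 0.856). Itga5 (chr15:103344286-103366763, minus strand) had 247.8 and 367.5 CPM in the TU_HEV plates, against 106.5 and 157.6 in the LN_HEV plates and 360.97, 391.8, 298.02 and 264.9 in the TU_EC plates. Its tumour plates overlapped with each other and not with those of lymph node, and the ratio was 2.30 over LN_HEV (2.26 to 2.34). Without pool1 neither gene passed 2-fold over LN_HEV, and without pool4 Itga5 did not.

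The laminin receptors differed among themselves. Itga6, the α chain of α6β1 and α6β4, had 156.8 and 144.3 CPM in the TU_HEV plates, against 32.4 and 43.4 in the LN_HEV plates and 187.7, 143.7, 167.9 and 180.6 in the TU_EC plates. It was 3.85-fold higher in TU_HEV than in LN_HEV (interval 3.74 to 3.96) and overlapped with TU_EC. Itga3, whose product α3β1 also binds laminin, had 64.2 and 68.8 CPM in TU_HEV, against 19.4 and 52.1 in LN_HEV and 140.1, 97.3, 105.5 and 89.6 in TU_EC. Its TU_HEV plates lay between those of the other groups, at 1.72-fold over LN_HEV and 0.621-fold over TU_EC, both under the 2-fold mark. Itgb4, the partner of α6 in hemidesmosomes, did not follow Itga6. It had 143.99 and 73.2 CPM in TU_HEV, against 87.9 and 77.8 in LN_HEV and 26.1, 96.3, 59.4 and 76.6 in TU_EC, and its plates overlapped in every comparison. Bcam, the Lutheran receptor for the laminin α5 chain, had 116.3 and 85.9 CPM in TU_HEV, against 139.4 and 163.1 in LN_HEV and 12.8, 66.5, 43.3 and 55.4 in TU_EC. It was thus highest in lymph node HEV cells and lowest in TU_EC, and TU_HEV was 2.18-fold above TU_EC (2.13 to 2.24), a call that was lost without pool3 or without poolA. Dag1, which encodes dystroglycan and binds laminin, agrin and perlecan through its sugars, had 88.6 and 134.6 CPM in TU_HEV, against 42.7 and 43.0 in LN_HEV and 87.8, 89.1, 108.9 and 69.6 in TU_EC. Dag1 was 2.66-fold higher in TU_HEV than in LN_HEV (2.59 to 2.74).

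Among receptors of the αv and β3 family, Itgb3 in TU_HEV differed from both other groups, and Itga2b did so with a less stable call over LN_HEV. Itgb3, the β3 chain, had 27.0 and 26.1 CPM in the TU_HEV plates, against 1.75 and 4.47 in the LN_HEV plates and 101.2, 74.5, 44.2 and 66.1 in the TU_EC plates. TU_HEV was 7.85-fold above LN_HEV (interval 7.14 to 8.66) and 2.66-fold below TU_EC (2.57 to 2.75), with no plate overlapping in either comparison. In LN_HEV counts of Itgb3 came from 4 of 140 cells, and the highest of them held 49.7%. Itgav, whose αv chain pairs with β3 among others, had 29.4 and 33.2 CPM in TU_HEV, against 14.1 and 8.65 in LN_HEV and 27.7, 25.1, 24.1 and 17.0 in TU_EC. It was 2.91-fold higher in TU_HEV than in LN_HEV (2.74 to 3.08) and was not called without cells that had Ptprc, Pf4, Epcam or Pdgfrb, at 29.3 CPM in TU_HEV and 17.8 in LN_HEV, of which 25 cells are then left. Against TU_EC it was not called either, and its sign turned with the scaling, from a log2 ratio of 0.42 down to -0.01. Itga2b, the αIIb chain known as the fibrinogen receptor of platelets when paired with β3, had 8.44 and 12.5 CPM in TU_HEV, against 7.5 and 0.95 in LN_HEV and 1.89, 2.46, 2.74 and 0.394 in TU_EC. It was 5.54-fold higher in TU_HEV than in TU_EC (4.98 to 6.18). Over LN_HEV it was 2.98-fold higher (2.69 to 3.30), a call lost without pool2, where the log2 ratio was 0.51. The call was also lost with size factors, and with totals without the 20 highest genes or without ribosomal RNA and mitochondrial genes. It was lost as well with the 11 pool1 libraries kept, at a minimum of 20 CPM and without cells that had Prox1 or Lyve1. Of 7 platelet markers, Pf4 was at 6.44 CPM in TU_HEV (11.8 in pool3 and 2.22 in pool4), 427 in LN_HEV and 0.519 in TU_EC, and Gp9, Gp5 and Treml1 had 0 counts in each group. Ppbp and Gp1bb were at 0 CPM in TU_HEV and LN_HEV, and Gp1ba was at 0 CPM in TU_HEV and 0.856 in LN_HEV. Among cells thinned to equal depth, 0 of the 18 TU_HEV cells with Itga2b had Pf4, and 6.25% of those without Itga2b. Only 5 of 98 TU_HEV cells had Pf4, too few for these shares to be told apart. In LN_HEV 8 of 9 cells with Itga2b had Pf4, and 82.3% of those without Itga2b. Itgb5 was counted in 5 cells of pool3, at 12.4 CPM there, and had 0 counts in pool4 and in LN_HEV.

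The collagen receptors split. Itga1, of α1β1, had 57.9 and 32.9 CPM in TU_HEV, against 18.4 and 17.7 in LN_HEV and 34.6, 26.1, 33.4 and 15.5 in TU_EC. It was 2.44-fold higher in TU_HEV than in LN_HEV (interval 2.33 to 2.55), not past 2-fold without pool3 nor without cells that had Ptprc, Pf4, Epcam or Pdgfrb (47.6 CPM in TU_HEV and 34.0 in LN_HEV), and 22.6% of its TU_HEV counts came from 1 cell. Itga2, of α2β1, had 23.2 and 24.9 CPM in TU_HEV, against 28.4 and 18.7 in LN_HEV and 40.3, 43.8, 37.1 and 40.5 in TU_EC. It overlapped between the HEV groups and was below TU_EC at 0.597-fold. Ddr2, a receptor tyrosine kinase for fibrillar collagen (chr1:169972307-170110762, minus strand), had 0 and 0.049 CPM in the TU_HEV plates, against 137.1 and 106.4 in the LN_HEV plates and 0.933, 0.541, 0 and 0.0591 in the TU_EC plates. It was counted in 1 TU_HEV cell with 4 counts, in 77 of 140 LN_HEV cells, with 5.07% of the counts in the highest, and in 3 TU_EC cells. The ratio was 4340-fold lower in TU_HEV than in LN_HEV (1700 to 15900), and LN_HEV was above TU_EC by 8.31 on the log2 scale. With the cells kept that failed the endothelial rule, Ddr2 was at 1.64 CPM in TU_HEV, 121.7 in LN_HEV and 5.41 in TU_EC. Ddr1, its epithelial relative, had 0 counts in TU_HEV and LN_HEV and 8 in TU_EC.

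Itga9, whose α9β1 product binds tenascin and EMILIN1 and is known from lymphatic valves, was the integrin gene called lower in TU_HEV than in both other groups. It had 10.5 and 16.1 CPM in TU_HEV, against 41.9 and 34.3 in LN_HEV and 59.2, 63.8, 61.8 and 62.8 in TU_EC. TU_HEV was 2.74-fold below LN_HEV (interval 2.60 to 2.88) and 4.54-fold below TU_EC (4.33 to 4.76), and both held under each scaling tried. Without cells that had Ptprc, Pf4, Epcam or Pdgfrb, which leaves 25 of 140 LN_HEV cells, Itga9 was at 14.8 CPM in TU_HEV and 16.9 in LN_HEV and was no longer called. Markers of lymphatic endothelium moved with it in part. The 6 summed to 34.3 CPM in TU_HEV, 17.6 in LN_HEV and 500 in TU_EC, with Flt4 taking 19.7 CPM in TU_HEV, 7.35 in LN_HEV and 273.7 in TU_EC. Of the defining markers, Prox1 was at 2.85 CPM in TU_HEV, 0.524 in LN_HEV and 27.1 in TU_EC. Without the cells that had Prox1 or Lyve1, Itga9 stood at 12.7 CPM in TU_HEV, 37.8 in LN_HEV and 61.0 in TU_EC, close to the values with them. In TU_EC, 2.33% of thinned cells with Itga9 had Prox1, and 3.51% of those without.

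The syndecans, heparan sulfate proteoglycans that act with integrins at adhesions, did not move together. Sdc3 had 39.2 and 55.2 CPM in TU_HEV, against 9.79 and 13.1 in LN_HEV and 75.7, 73.2, 75.6 and 72.2 in TU_EC. Its ratio of TU_HEV over LN_HEV was 4.09 (interval 3.88 to 4.32). Without cells that had Ptprc, Pf4, Epcam or Pdgfrb Sdc3 was at 52.1 CPM in TU_HEV and 30.4 in LN_HEV and was not called. Sdc1 had 8.44 and 4.33 CPM in TU_HEV, against 0.0175 and 3.87 in LN_HEV and 17.1, 17.8, 17.2 and 13.6 in TU_EC. These Sdc1 values rest on 4 TU_HEV cells and 3 LN_HEV cells. The Sdc1 call over LN_HEV was lost without pool1, without pool3, with size factors and at a minimum of 20 CPM. It was also lost in thinned cells, with equal weight for each cell and without the highest cell of each gene. Sdc4 had 0 and 1.22 CPM in TU_HEV, against 2.17 and 13.2 in LN_HEV and 3.71, 8.67, 10.8 and 4.61 in TU_EC. Its TU_HEV counts came from 2 cells, 99% of them from 1, and it was counted in 14 LN_HEV cells and 13 TU_EC cells. The call of Sdc4 below LN_HEV was lost without pool2, without the endothelial rule and at a minimum of 20 CPM. It was also lost without cells that had Ptprc, Pf4, Epcam or Pdgfrb. The TU_EC call for both Sdc1 and Sdc4 was lost without cells that had Prox1 or Lyve1, and also at a minimum of 20 CPM. That of Sdc1 was lost as well without pool4 and without cells that had Ptprc, Pf4, Epcam or Pdgfrb. That of Sdc4 was lost as well with equal weight for each cell, without the endothelial rule and without the highest cell of each gene. Cd44, the hyaluronan receptor, was counted in 3 TU_HEV cells, 13 LN_HEV cells and 10 TU_EC cells, at 5.34, 9.58 and 3.74 CPM, with overlapping plates.

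The integrins of leukocytes served as a check of other cells in the sort. The 8 genes, among them Itgb2 and Itgal of LFA-1 and Itga4 and Itgb7 of the MADCAM1 receptor, summed to 2.02 CPM in TU_HEV, 3.24 in LN_HEV and 0.0586 in TU_EC. Itgb2 had counts in 1 LN_HEV cell, Itga4 in 4 LN_HEV cells and Itgb7 in 2 TU_HEV cells. Itgae had 70 counts in TU_HEV, 1 in LN_HEV and 11 in TU_EC, and Itgad had 57, 0 and 2 counts. Outside this set, the collagen receptor chains Itga10 (0, 26 and 6 counts) and Itga11 (12, 0 and 2 counts in TU_HEV, LN_HEV and TU_EC) were near 0, Itga7 and Itgb8 had 1 count each, in TU_EC, and Sdc2 was counted in 1 LN_HEV cell and 2 TU_EC cells. Of the 8 general leukocyte markers, Ptprc was at 0 CPM in TU_HEV, 2.58 in LN_HEV and 0 in TU_EC. Nearly all of the summed level of this list was Lcp1, at 214.1 CPM in TU_HEV, 307.5 in LN_HEV and 155.01 in TU_EC. The source of the Lcp1 transcript was not tested. Cd53 had 0 counts. Ptprc, Lcp1 and Cd53 were among the genes of the cell filter. Erythrocyte transcripts stood in pool2, where Hba-a1 was at 1052 CPM against 0.0876 in pool1.

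The makeup of the integrin pool does not depend on the scaling of the libraries. With CPM divided by exon length, Itga5 gave 60.9% of all α subunit transcript in TU_HEV, 55.8% in LN_HEV and 54.8% in TU_EC. Itga6 gave 15.9% in TU_HEV, 8.67% in LN_HEV and 15.3% in TU_EC. Itga9 gave 1.69% in TU_HEV, 9.76% in LN_HEV and 6.59% in TU_EC. The fibronectin receptor chain thus led in each group, and what differed was the place after it, held by Itga6 in TU_HEV and by Itga3 (13.7%) in LN_HEV (in pool1 alone by Itga9), with Itga6 and Itga3 level in TU_EC at 15.3% and 15.4%. Among β subunits, Itgb1 gave 89% in TU_HEV, 85.4% in LN_HEV and 90.4% in TU_EC. Itgb4 gave 7.64% in TU_HEV, 13.5% in LN_HEV and 4.16% in TU_EC, and Itgb3 gave 2.31%, 0.662% and 5.28% in the same order of groups. By plate, the Itgb3 share was 2.28% and 2.33% in TU_HEV, against 0.45% and 0.756% in LN_HEV and 3.24% to 7.95% in TU_EC, with no overlap. The Itga9 share was 1.5% and 1.81% in the TU_HEV plates, against 13.1% and 8.07% in LN_HEV and 5.63% to 7.72% in TU_EC. The Itgb4 share overlapped between TU_HEV (10.2% and 5.48%) and TU_EC (1.73% to 5.65%) and not between TU_HEV and LN_HEV (19% and 11.1%).

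**Figure D3:**
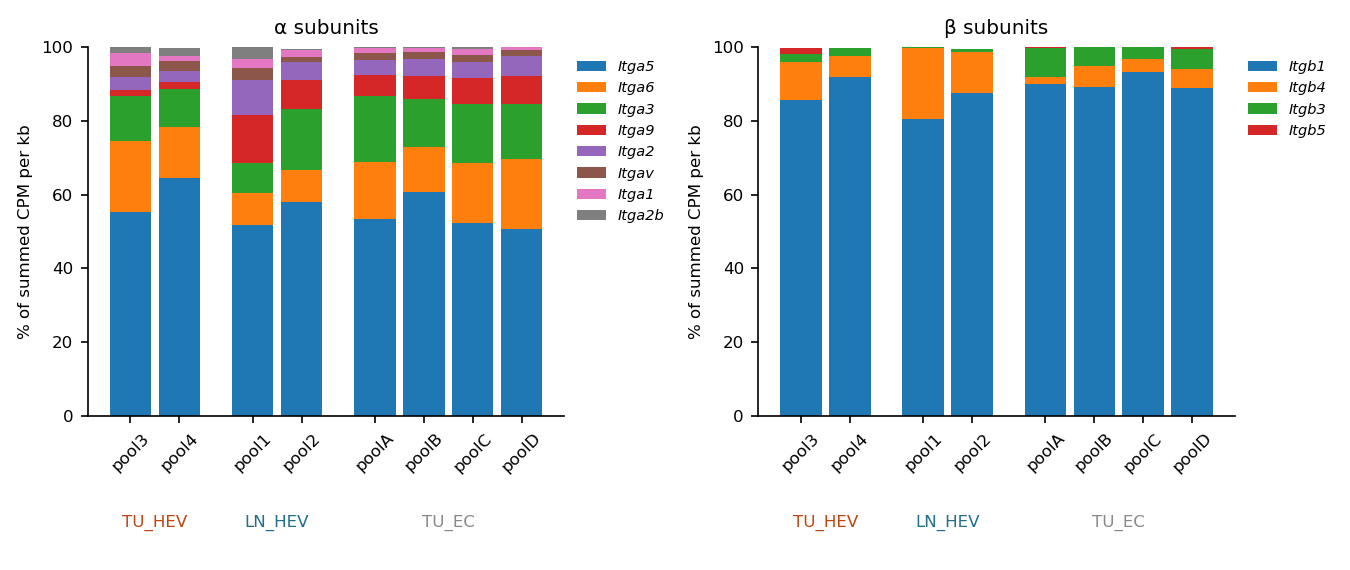
Makeup of the α and β subunit transcripts by plate, as the percent of summed CPM per kb of exon that each gene contributed, with genes under 1% in every group and plate not drawn. Itga9 gave 1.5% and 1.81% of α transcript in the TU_HEV plates and 13.1% and 8.07% in the LN_HEV plates, and Itgb3 gave 2.28% and 2.33% of β transcript against 0.45% and 0.756%.

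In individual cells Itgb1 was near universal, while Itga6, Itgb3, Itga9 and Ddr2 were found in very different shares of cells. Each cell was thinned to 100000 counts, where 10 CPM is 1 count. This left out 1 LN_HEV cell and 3 TU_EC cells that were shallower. Itgb1 was found in 91.8% of 98 TU_HEV cells, 82% of LN_HEV cells and 94% of TU_EC cells. Itga6 was found in 64.3% of TU_HEV cells (exact binomial interval 54 to 73.7), 35.3% of LN_HEV cells (27.3 to 43.8) and 72.3% of TU_EC cells (66.9 to 77.3). For Itgb3 the shares were 17.3% in TU_HEV (10.4 to 26.3), 2.88% in LN_HEV (0.79 to 7.2) and 45.7% in TU_EC (39.9 to 51.5). Itgb3 was thus in a minority of TU_HEV cells, and its cells with a count had a median of 76.3 CPM there, against 95.0 in TU_EC. Itga9 was found in 11.2% of TU_HEV cells (5.74 to 19.2), 36% of LN_HEV cells (28 to 44.5) and 43% of TU_EC cells (37.3 to 48.8). Ddr2 was found in 0 of 98 TU_HEV cells, which by the rule of 3 counts allows a share of cells with a count of up to 3.06% (exact upper bound 3.69), in 51.8% of LN_HEV cells (43.2 to 60.3) and in 0.667% of TU_EC cells. As a gauge of transcript from other cells, Epcam was found in 0 cells of each group, Ptprc in 0%, 0.719% and 0% and Prox1 in 3.06%, 0.719% and 3% of TU_HEV, LN_HEV and TU_EC cells. Epcam and Ptprc were also among the genes of the cell filter. The platelet gene Pf4 was found in 5.1% of TU_HEV cells, 82.7% of LN_HEV cells and 0.667% of TU_EC cells. In LN_HEV the other platelet markers did not go with Pf4, with Gp1ba at 0.856 CPM and the rest at 0. The origin of the Pf4 transcript was not tested. Itga2b was found in more TU_HEV cells than Epcam, Ptprc, Prox1 or Pf4, at 18.4% (11.3 to 27.5), against 6.47% in LN_HEV (3 to 11.9) and 6.67% in TU_EC (4.12 to 10.1). Unthinned shares were close, at 16.3%, 2.14% and 45.9% for Itgb3 and 10.2%, 33.6% and 41.3% for Itga9 in TU_HEV, LN_HEV and TU_EC.

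**Figure D4:**
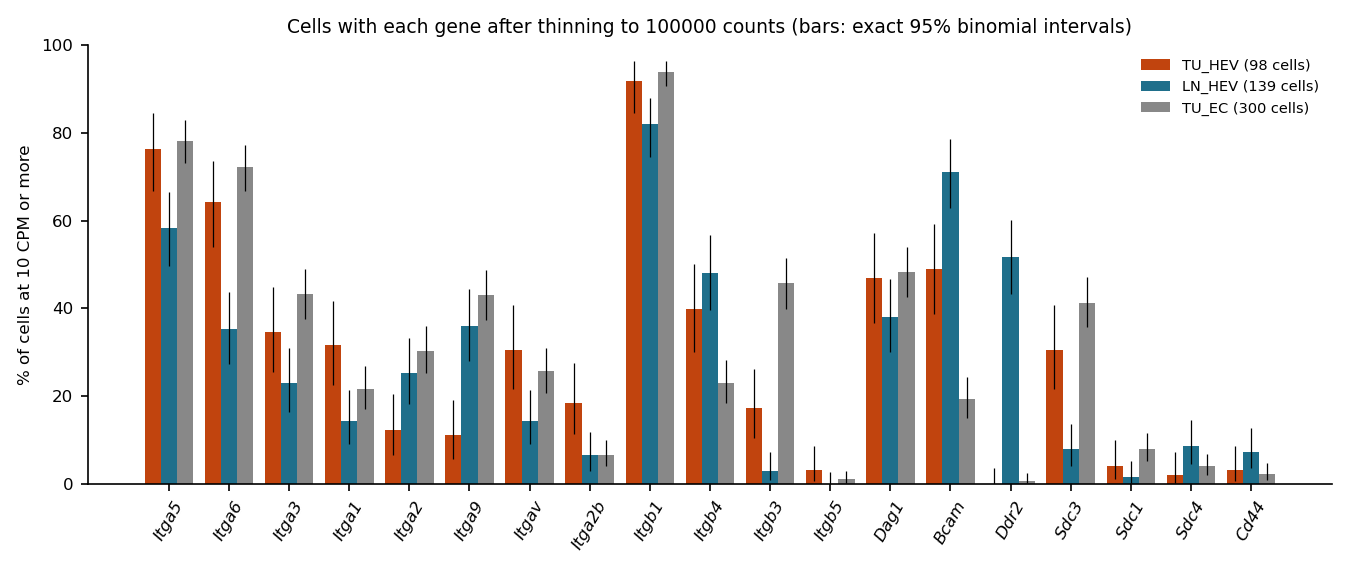
Percent of cells with each gene at 10 CPM or more after each cell was thinned to 100000 counts, with exact 95% binomial intervals that cover counting of cells only. Itgb3 was found in 17.3% of TU_HEV cells, 2.88% of LN_HEV cells and 45.7% of TU_EC cells, and Ddr2 in 0%, 51.8% and 0.667%.

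A thinned cell had a median of 3 different α subunit genes in TU_HEV (range 0 to 6), 2 in LN_HEV (0 to 7) and 3 in TU_EC (0 to 7). None was found in 3.06% of TU_HEV cells, 10.8% of LN_HEV cells and 3.33% of TU_EC cells. By plate the share without one was 4% and 2.08% in TU_HEV, against 5% and 15.2% in LN_HEV and 0% to 5.97% in TU_EC, so the TU_HEV plates overlapped with TU_EC and lay below both LN_HEV plates. Partner chains were found together in part. Of TU_HEV cells with Itgav 33.3% also had Itgb3, and of those without it 10.3%. The same shares were 70.1% and 37.2% in TU_EC. In LN_HEV 0 of 20 cells with Itgav had Itgb3, and 3.36% of those without it, with Itgb3 found in only 4 cells there. Of TU_HEV cells with Itga2b 38.9% had Itgb3, and of those without it 12.5%. In TU_EC these were 45% and 45.7%. For Itga6 and Itgb4, the chains of the hemidesmosome integrin, the shares were 38.1% and 42.9% in TU_HEV, 44.9% and 50% in LN_HEV and 24.9% and 18.1% in TU_EC. These are shares over cells of 1 sample a group and describe these cells alone.

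**Figure D5:**
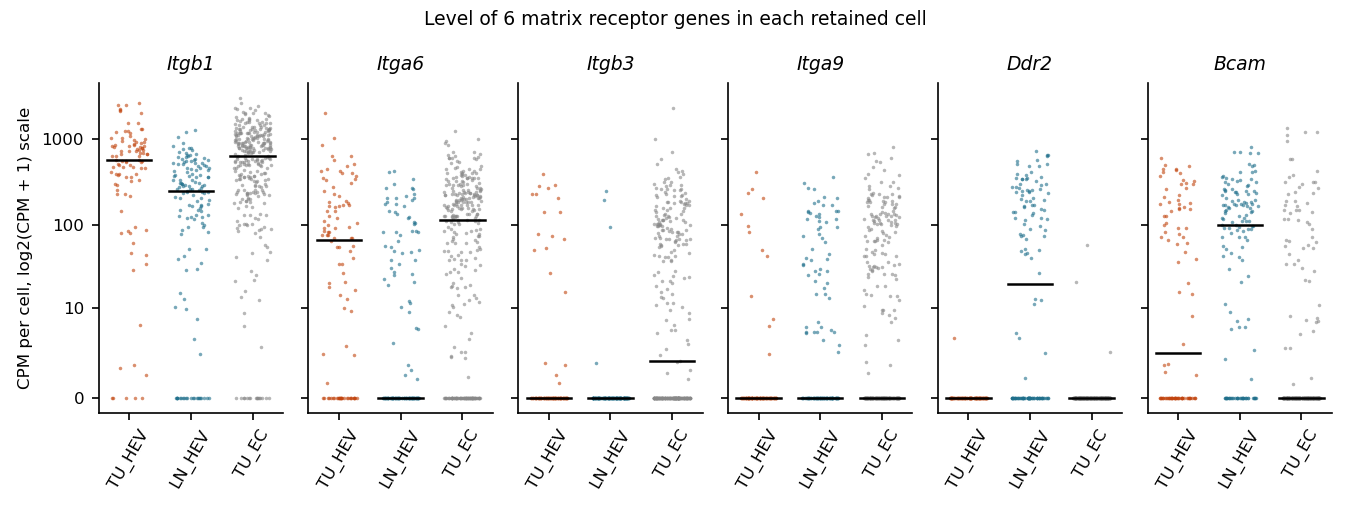
CPM of 6 genes in each retained cell on a log2(CPM + 1) scale, with the median of each group as a line (541 cells, of which 98 are TU_HEV and 140 LN_HEV). The Itgb1 median was 572 CPM in TU_HEV, 246.4 in LN_HEV and 629 in TU_EC, and the Ddr2 median was 0 in TU_HEV and TU_EC and 19.9 in LN_HEV.

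The spread between cells was wide for each gene. Among cells with a count, the Itgb1 median was 631 CPM in TU_HEV, 289.02 in LN_HEV and 705 in TU_EC. It reached 2620 CPM in the highest TU_HEV cell, 1270 in LN_HEV and 2990 in TU_EC, and the lowest cell was at 0 in each group. Itga5 had a median of 177.9 CPM in TU_HEV cells, 55.5 in LN_HEV cells and 210.9 in TU_EC cells. Bcam had a median of 2.32 CPM in TU_HEV cells, 98.7 in LN_HEV cells and 0 in TU_EC cells. Among cells with a count, Bcam medians were closer, at 151.6 CPM in TU_HEV, 159.9 in LN_HEV and 113.9 in TU_EC, so the Bcam groups differed more in the number of cells than in the level per positive cell. Bcam was found in 49% of thinned TU_HEV cells, 71.2% of LN_HEV cells and 19.3% of TU_EC cells.

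The ligands of these receptors moved further than the receptors. Of 26 matrix and plasma ligand genes at 5 CPM or more, 19 were higher in TU_HEV than in LN_HEV and 2 were lower, with a median log2 ratio of 2.74. Against TU_EC, 3 were higher, 9 were lower and the median was -0.97. With size factors these were 18 of 24 higher and 2 lower against LN_HEV, and 1 higher and 15 lower against TU_EC. Fn1, fibronectin, the ligand of α5β1, was at 15.1 CPM in TU_HEV, 0.0283 in LN_HEV and 518 in TU_EC. In TU_HEV the Fn1 counts came from 8 cells, with 0.341 CPM in pool3 and 26.8 in pool4. Among laminin chains, Lamb1 was at 191.8 CPM in TU_HEV, 2.77 in LN_HEV and 469 in TU_EC, and Lama4 at 106.4 CPM in TU_HEV, 8.87 in LN_HEV and 507 in TU_EC. The basement membrane protein gene Nid2 was at 72.5 CPM in TU_HEV, 2.85 in LN_HEV and 721 in TU_EC. Each of these stood between the lymph node and the TU_EC value. Others were highest in TU_HEV: Vwf, a ligand of αIIbβ3 and αvβ3 stored in endothelial granules, was at 662 CPM in TU_HEV, 57.3 in LN_HEV and 179.1 in TU_EC, and Thbs1, thrombospondin, at 487 CPM in TU_HEV, 13.7 in LN_HEV and 205.9 in TU_EC. Lamb2 was 2.03-fold higher in TU_HEV than in TU_EC. Lower in TU_HEV than in LN_HEV were Mfge8, whose secreted product binds αv integrins, at 311.6 CPM against 4115, and Tnc, tenascin-C, a ligand of α9β1, at 5.94 against 21.6. Tnc was counted in 2 TU_HEV cells, at 13.4 CPM in pool3 and 0.0122 in pool4, against 14.9 in pool1. Fgl2 and Npnt had 0 counts in LN_HEV and were at least 527-fold and 270.6-fold higher in TU_HEV, with the lymph node value set at 3 counts in all. In TU_HEV Fgl2 was counted in 5 cells and Npnt in 3. Both were lower in TU_HEV than in TU_EC, by 6.60-fold and 9.47-fold. The plates of Fgl2 were close, at 22.6 CPM in pool3 and 24.1 in poolB, with 2.17 in pool4. In LN_HEV against TU_EC, 21 of 26 ligand genes were lower and 1, Mfge8, was higher, with a median of -3.18. The lower ones with the largest ratios were Fn1 at 18298-fold, from 4 counts in LN_HEV, and Fgl2 and Npnt, whose values there are bounds of at least 3477-fold and 2563-fold.

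Genes that activate integrins and link them to actin showed smaller differences. Of 20 at 5 CPM or more, 7 were higher in TU_HEV than in LN_HEV and 2 were lower (median log2 ratio 0.80). The higher calls depended on the scaling and on 1 plate: with size factors, or without the 20 highest genes in the totals, 1 was higher (Lims2), without pool1 2 were, and with the 11 libraries kept 3 were. The largest was Lims2, the PINCH2 adaptor of the ILK complex, at 190.6 CPM in TU_HEV and 55.6 in LN_HEV, or 3.43-fold, followed by the small GTPase gene Rap1b at 2.33-fold and tensin-2 (Tns2) at 2.26-fold. The lower genes were Parvg, at 0.116 CPM in TU_HEV against 17.7 in LN_HEV, and Fermt3, kindlin-3, known as the kindlin of blood cells, at 0 counts in TU_HEV against 5.97 CPM in LN_HEV, so at least 291.1-fold lower. Parvg was counted in 18 LN_HEV cells and Fermt3 in 12, from both plates. Without the cells that had Ptprc, Pf4, Epcam or Pdgfrb, Fermt3 was at 0 CPM in all but TU_EC (0.101), and Parvg was at 0.126 CPM in TU_HEV and 8.92 in LN_HEV. With the cells kept that failed the endothelial rule, Fermt3 was at 5.00 CPM in TU_HEV and 5.74 in LN_HEV. Against TU_EC, of 18 genes Lims2 alone was called higher in TU_HEV (3.76-fold) and Tns3 alone lower (2.92-fold), with a median of 0.24. In LN_HEV against TU_EC, of 20 genes 2 were higher (Fermt3 and Parvg) and 6 lower, with a median of -0.50; the lower ones with the largest differences were Tns1 (2.80-fold), Tns2 (2.75-fold) and Fermt2 (2.70-fold), the kindlin of most tissues.

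Of 15 focal adhesion signalling genes, 5 were higher in TU_HEV than in LN_HEV and 0 lower (median 0.50). Those with the largest ratios were Zyx, zyxin, a sensor of tension on actin, at 108.3 CPM in TU_HEV and 12.2 in LN_HEV (8.92-fold), Ptk2b, the FAK relative PYK2, at 26.1 and 3.01 CPM (8.65-fold), and Nedd9, a docking protein of the CAS family, at 144.7 and 33.2 CPM (4.36-fold). Against TU_EC only Ptk2b of 15 was called, 3.30-fold higher in TU_HEV (median 0.13). In LN_HEV against TU_EC 4 of 15 were lower, led by Zyx (9.29-fold), Nedd9 (5.38-fold) and Tgfb1i1 (5.08-fold), and 0 were higher (median -0.38).

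Tetraspanins and other partners of integrins on the membrane went both ways. Of 10, 5 were higher in TU_HEV than in LN_HEV and 3 lower (median 0.83). Plaur, the urokinase receptor, a lateral partner of β1 and β3 integrins, was at 156.8 CPM in TU_HEV, 2.44 in LN_HEV and 154.01 in TU_EC, and its pool4 value was 84.7, far under that of pool3. Emp1 was 31.3-fold and Cav1, caveolin-1, 3.18-fold higher in TU_HEV than in LN_HEV. Emp2, a regulator of αvβ3 on the membrane, was at 0.520 CPM in TU_HEV, 83.7 in LN_HEV and 21.7 in TU_EC. The tetraspanins Cd63 and Cd82 were lower in TU_HEV than in LN_HEV, by 2.33-fold and 2.27-fold, and higher than in TU_EC, at 2.38-fold and 2.87-fold. Against TU_EC, 4 of 10 were higher in TU_HEV (the 2 just named, Cav1 at 2.68-fold and Cd47 at 2.21-fold) and 1, Emp2, was lower (median 0.68). With size factors 0 of 10 were called higher than in TU_EC and 1 lower (median 0.25), and without pool2 1 was called lower than in LN_HEV in place of 3. In LN_HEV against TU_EC 3 were higher and 3 lower (median -0.27), with Plaur 63.1-fold and Emp1 18.9-fold below TU_EC.

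Endothelial ligands of the leukocyte integrins were among the genes higher in TU_HEV. Of 7, 3 were higher than in LN_HEV (Vcam1 at 5.63-fold, Jam2 at 3.06-fold and F11r at 2.60-fold) and 1, Jam3, was lower at 4.52-fold, with a median of 0.93. Against TU_EC 3 were higher (Vcam1, Icam1 and Jam2) and 0 lower, with a median of 1.52. Vcam1, bound by α4 integrins, was at 737 CPM in TU_HEV, 130.9 in LN_HEV and 65.5 in TU_EC, and Icam1, bound by LFA-1, was 3.79-fold higher in TU_HEV than in TU_EC. Madcam1, the ligand of α4β7, was 36.2-fold higher in LN_HEV than in TU_EC, where F11r was 2.82-fold lower and Jam3 4.81-fold higher in LN_HEV (median 1.00). Madcam1 was counted in 5 TU_HEV cells, 6 LN_HEV cells and 1 TU_EC cell, at 17.2, 25.0 and 0.690 CPM. Its TU_HEV plates were at 37.1 CPM (pool3) and 1.42 CPM (pool4).

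Of 6 genes of hyaluronan binding and breakdown beside Cd44, 2 were higher in TU_HEV than in LN_HEV (Stab1, a scavenger receptor, at 399 CPM against 74.3, and Tmem2) and 2 were lower, the hyaluronidase genes Hyal1 (3.10-fold) and Hyal2 (2.30-fold), with a median of 0.94. With size factors 1 of 5, Stab1, was higher. Against TU_EC 0 of 6 were called in either direction (median -0.10), and with size factors 1, Stab1, was lower. In LN_HEV against TU_EC Hyal1 and Hyal2 were higher and Stab1 and Hmmr lower (median -1.82). Of the enzymes that build the laminin-binding sugars of dystroglycan, 1 of 12 was higher in TU_HEV than in LN_HEV (B3galnt2, 5.29-fold) and 0 lower, with a median of -0.10, although Dag1 itself was higher. Against TU_EC 2 of 11 were higher in TU_HEV (Pomk, 2.77-fold, and Tmem5, 2.62-fold) and 0 lower (median 0.82), where 0 were called with size factors, and in LN_HEV 3 of 12 were higher than in TU_EC (Pomgnt2, Tmem5 and Pomk) and 0 lower (median 0.79). The shares of all genes called, given above for each comparison, are the background for these lists as well, under the main scaling only. With size factors the all-gene median moves by -0.30 for TU_HEV over LN_HEV and by -0.45 for TU_HEV over TU_EC. For LN_HEV over TU_EC it moves by -0.15, and the log2 ratios of single genes shift by about as much. Shifts of this size put the medians of the activation and focal adhesion lists in TU_HEV over TU_EC (0.24 and 0.13) below 0. They leave the sign of every other list median as given.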

How the data were processed

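The authors deposited raw counts of reads per gene and cell, made per the labels' protocols from Smart-seq2 libraries (whole transcripts, no molecular identifiers) read as 75 bp single ends. Per the submitters' processing notes, the genome build was mm10 (GRCm38) and the tools were Subread 1.4.6-p2, STAR 2.4.1b and FastQC 0.11.4. No source used here gives the strand setting or annotation, so reads of overlapping antisense genes cannot be told apart. The members and gene lists were chosen with earlier results of these data known.

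Rows of the same symbol were summed. Cells were kept with 50000 counts, 1000 genes and at most 30% mitochondrial counts, 2 of 5 pan-endothelial genes at 10 CPM and under 3 of 6 leukocyte, epithelial or mural genes, and 11 pool1 libraries were left out by the rule that defines the gene set. Wells held sorted cells and no doublet caller was run. Counts were summed by group and plate and scaled to CPM. Total counts were 146215450 in TU_HEV, 141317584 in LN_HEV and 221773977 in TU_EC, so 3 counts are 0.0205, 0.0212 and 0.0135 CPM. With 1 sample a group there was no test across samples. The list genes named are those with the largest ratios among the called, up to 3 each way per list and comparison, and those whose products pair with or bind a called receptor. Exon lengths and positions came from GENCODE M21, in which all 35 genes were found, and upstream sequence from RefSeq. The calling step recovered all 200 genes changed in simulated counts. That recovery gives no rate of false calls in these data and does not measure the spread between animals. Python 3.11.15, numpy 2.4.6, pandas 2.3.3, scipy 1.17.1 and matplotlib 3.10.9 were used.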

Additional observations from a re-analysis of the deposited data

How the results depend on the processing

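No direction of a called gene was reversed under any alternative run. The shares of all genes called, given above, belong to the main run and are not the background for the counts below. With median-of-ratios size factors 5 of the genes were higher in TU_HEV than in LN_HEV, 1 was higher than in TU_EC and 7 were lower than in TU_EC. Totals without the 20 highest genes gave 6, 1 and 7. Totals without ribosomal RNA and mitochondrial genes gave 1 higher than in TU_EC. With a minimum of 20 CPM 1 was higher and 2 were lower in TU_HEV than in TU_EC, and without cells that had Prox1 or Lyve1 (chosen after seeing the data) 2 were lower. Without cells that had Ptprc, Pf4, Epcam or Pdgfrb, 1 gene, Ddr2, was lower in TU_HEV than in LN_HEV, of which 25 cells were left. The higher calls of Itga1, Itgav and Sdc3 were lost there too. Pf4 was found in 82.7% of thinned LN_HEV cells, so this setting left out mainly cells with Pf4. Leaving out a plate gave 1 (without poolA) to 5 (without pool4, which adds Itga1, Itgb4 and Itgb5) genes higher in TU_HEV than in TU_EC, and 7 to 10 higher and 2 to 4 lower than in LN_HEV. The other counts stayed within 1.5 times. Leaving out pool1 libraries 26, 29 and 33 (chosen after seeing the data) changed no call. For the gene lists, whose alternatives were added after seeing the data, the ligands called lower in TU_HEV than in TU_EC were 9, and 15 with size factors, and the activation genes called higher than in LN_HEV were 7, with 1 to 10 under the alternatives. Focal adhesion genes lower in LN_HEV than in TU_EC were 4, and 7 without pool2, and dystroglycan enzymes higher there were 3, and 7 without pool1. The cause of these changes was not tested. The number of cells limits Sdc1, Sdc4, Cd44 and Itgb5, which rest on 0 to 26 cells a group. It also limits other genes in a group where they are low, such as Itgb3 (4 LN_HEV cells) and Itga9 (13 TU_HEV cells). In LN_HEV Itga2b was counted in 11 cells, with 38% of the counts in the highest, and Sdc3 in 13, with 39.6%. No paired analysis was possible because no animal is named and the library numbers do not pair cells across groups.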
